A study of Mus musculus with 4 samples.

Results

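The 8 genes described here encode collagens that do not form the thick fibrils of the vessel wall, and they were chosen by symbol, as the microfibrillar, network-forming and FACIT collagens among the 48587 genes of the count table. They are *Col6a1*, *Col6a2* and *Col6a3* (collagen VI), *Col8a1* and *Col8a2* (collagen VIII), and the FACIT genes *Col12a1*, *Col14a1* and *Col16a1*. All 8 had counts in every library and passed the filter on low counts. Poly-A RNA was sequenced from primary vascular smooth muscle cells (VSMCs), grown out of the descending aorta of C57BL/6J mice aged 8 to 12 weeks after the adventitia had been digested off and the endothelium scraped, and used at passage 5 to 7. Cells of both groups were transduced with a lentivirus, shCTR with a hairpin against a plant microRNA and shMettl14 with a hairpin against *Mettl14*, for 24 hours and were collected 48 hours later. Each group has 2 libraries, which carry the letters A and B. A single hairpin stands for the knockdown. Nothing states that the libraries came from separate cultures or animals, so the p-values measure only the spread between these libraries.

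Collagen VI is built from 3 different chains, which join inside the cell and are secreted as tetramers that line up end to end into beaded microfibrils around cells and next to basement membranes. Collagen VIII is a short-chain collagen that forms hexagonal networks. It is known from the vessel wall, where VSMCs make more of it after injury. The FACIT collagens (fibril-associated collagens with interrupted triple helices) do not form fibrils of their own but sit on the surface of collagen fibrils and link them to other matrix proteins. METTL14 is the RNA-binding partner of METTL3 in the complex that places *N*6-methyladenosine (m6A) on mRNA, often near the stop codon and in the sequence context GGACT. The comparison asks what loss of *Mettl14* did to the mRNA of these collagen genes.

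The transcript sequences were searched for GGACT, since it is a common form of the site that the METTL3 and METTL14 complex methylates. In the GENCODE M21 transcript with the longest coding sequence, the number of copies ranged from 3 in *Col6a2* to 21 in *Col16a1*. *Col16a1* also had the most copies per kilobase, 4.03, against 0.608 in *Col12a1*, the lowest of the 8. Within 200 bases of the stop codon 4 of the 8 members held a copy, *Col6a2*, *Col6a3*, *Col8a1* and *Col16a1*, against 39.4% of 14324 tested genes searched in the same way. *Col6a1*, *Col8a2*, *Col12a1* and *Col14a1* had none in that window. The copies nearest to the stop codon are shown with 10 bases on each side, 5′ to 3′ on the strand of the gene and with the nearest copy of GGACT in capitals, because they are the places where the 4 members share this context. They are at chr10:76596066-76596090 for *Col6a2*, chr1:90768437-90768461 for *Col6a3*, chr16:57626959-57626983 for *Col8a1* (all minus strand) and chr4:130099107-130099131 for *Col16a1* (plus strand) of GRCm38, each within 1 exon. The *Col6a2* and *Col16a1* copies start 135 and 27 bases after the first base of the stop codon and so lie in the 3′ UTR, and the *Col6a3* and *Col8a1* copies start 139 and 60 bases before it, in coding sequence. The flank of the *Col6a3* copy begins with the second of its 2 copies in the window, in lower case. A match says only that these letters occur there, and no m6A value was used.
Col6a2: caggacagaaGGACTctgaacccaa
Col6a3: ggacttgtgtGGACTtcaagttact
Col8a1: acaggctgctGGACTctatgccggg
Col16a1: ctgagatgaaGGACTctactaggaa

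Library totals lay between 114343653 and 124815868 counts. *Mettl14* itself had 2050 and 2154 counts in shCTR A and B and 546 and 568 in shMettl14 A and B, so that 23.6% of its normalized level was left. Across the whole table the letters differed more than the hairpins, with a larger mean difference between letters in 62.1% of 18916 tested genes. All 8 contractile smooth muscle markers (*Acta2*, *Tagln*, *Cnn1*, *Myh11*, *Smtn*, *Lmod1*, *Myocd*, *Des*) were detected, with a summed level of 6799 and 5772 CPM (counts per 1000000 of the library size after TMM normalization) in shCTR A and B and of 4442 and 4811 CPM in shMettl14 A and B, and *Myocd* was at 0.546 CPM in shCTR A. All 8 endothelial markers were detected too, with a sum of 1919 CPM in shCTR A, 4067 in shCTR B, 1811 in shMettl14 A and 2522 in shMettl14 B. *Emcn* and the junction gene *Cdh5* were among them. The sum over 6 leukocyte markers was at most 9.17 CPM, and *Adgre1*, *Cd3e* and *Itgam* were at 0 in at least 1 library. The 8 fibroblast markers summed to between 670 and 797 CPM, of which *Cd34* and *Ly6a* made up most. *Pdgfra* was at 7.93 to 14.5 CPM. *Lum*, *Dpt*, *Pi16*, *Dpep1* and *Clec3b* were at most at 1.92 CPM in any library, and *Lum* was at 0 in shCTR B. In such bulk RNA fewer cells of a type and less RNA per cell cannot be told apart.

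The collagens spanned a wide range of levels. Per kilobase of the longest coding transcript, *Col8a1* was the most abundant, with a mean of 153 CPM per kilobase over the 4 libraries. *Col6a1* followed with 79.8, *Col6a2* with 36.6, *Col12a1* with 31.7, *Col14a1* with 28.0, *Col16a1* with 19.6 and *Col6a3* with 10.2 CPM per kilobase. *Col8a2*, the partner chain of *Col8a1*, was at 0.0526 CPM per kilobase. *Col8a1* lay above *Col6a1*, and *Col6a1* above *Col6a2*, in every library. The 4 libraries of *Col6a2*, *Col12a1* and *Col14a1* overlapped, those of *Col16a1* overlapped with those of *Col12a1* and *Col14a1*, and those of *Col6a3* overlapped with those of *Col14a1* and *Col16a1*, so the order among neighbours there is within the spread. With all annotated exon bases as the length, *Col6a2* would stand at 17.3, below *Col14a1* (25.7) and *Col12a1* (23.9). No exon base of any of the 8 genes overlapped an exon of another annotated gene on either strand.

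**Figure D1:**
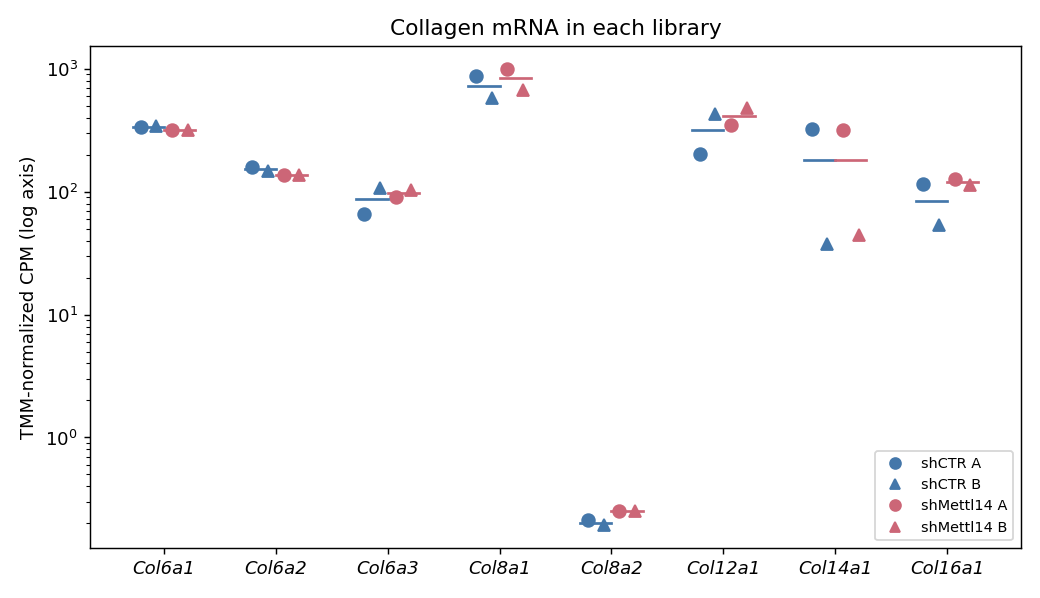
TMM-normalized CPM of the 8 collagen genes on a log axis, with 1 point per library (circles for letter A, triangles for letter B, blue for shCTR, red for shMettl14) and a line at the mean of each group. *Col6a1* and *Col6a2* lie close together in the 4 libraries, *Col14a1* splits by letter (322 and 318 CPM in A, 37.6 and 44.5 in B), and *Col8a2* lies below 1 CPM throughout.

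No member passed the test between the hairpins at an adjusted p under 0.05. The edgeR fit without a block had little room to show one. In simulated data with letters that differed as measured it found 0% of 200 genes changed by 2 on the log2 scale. In that fit *Mettl14* itself had an adjusted edgeR p of 1. After Benjamini-Hochberg adjustment over every tested gene, 0 of 8 had an adjusted p under 0.05 in the quasi-likelihood test of edgeR, as had 0.00% of all genes, and 0 of 8 had an unadjusted p under 0.05, against 1.67% of all genes. DESeq2, which found 64% of the 200 changed genes in the same simulated data, also called 0 of the 8 at either level. The estimates of the members were at most 0.51 on the log2 scale in the edgeR fit without a block. Changes of that size were not simulated, so the shares found do not tell how often such changes would be called. The lowest unadjusted p of a member was 0.25, that of *Col16a1*, and the adjusted p from edgeR was 1 for each. These results ignore the letters. An alternative edgeR fit with the letters as pairs found 74.5% of the 200 changed genes in the same simulated data. In it 2 of the 8, *Col12a1* and *Col16a1*, had an unadjusted p under 0.05, against 10.3% of all genes. After adjustment 0 of the 8 did. By direction alone, *Col6a1* and *Col6a2* were lower with shMettl14 within both letters, which is 2 of 8 members against 27.7% of all genes. *Col8a1*, *Col8a2*, *Col12a1* and *Col16a1* were higher within both, 4 of 8 against 30.0%. *Col6a3* and *Col14a1* went opposite ways in A and B. The groups did not overlap for *Col6a1* and *Col6a2*, where both shMettl14 libraries were below both shCTR libraries (2 of 8, against 13.3% of all genes), and for *Col8a2*, where both were above (1 of 8, against 14.7%). The median log2 fold change of the 8 was 0.19, and that of all genes was 0.01. With library totals alone, under which the median of all genes was 0.12, the median of the 8 was 0.30 and *Col6a2* alone was lower. With shCTR A, shCTR B or shMettl14 A left out, 4 were higher and 4 lower. Of the 8 smooth muscle markers, 8 had an estimate below 0, as had 9230 of all 18916 genes. So had 7 of 8 endothelial and 3 of 3 tested leukocyte markers, but 3 of 8 fibroblast and 1 of 3 tested pericyte markers. The median of the smooth muscle markers was −0.41, and 6 were lower within both letters, against 27.7% of all genes. The medians of the endothelial and leukocyte markers were −0.21 and −0.21. Among the smooth muscle markers an unadjusted edgeR p under 0.05 was found for *Acta2* alone, and 0 had an adjusted p under 0.05. The part of these markers in the collagen values was not tested.

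**Figure D2:**
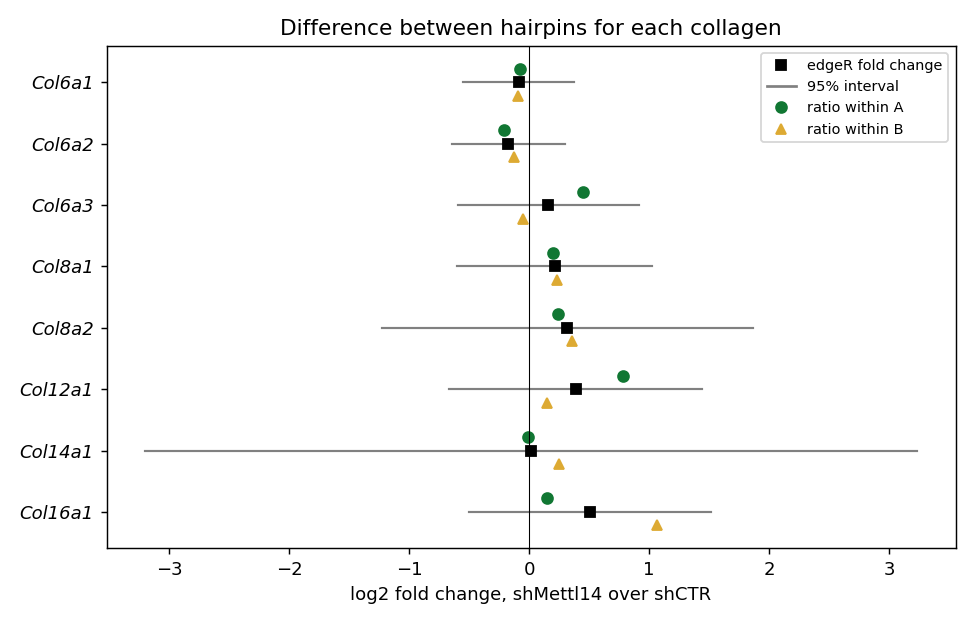
Log2 fold change of shMettl14 over shCTR for each collagen gene. Squares are edgeR's estimates from the fit that ignores the letters, with 95% intervals as grey lines. Circles are the ratios within letter A and triangles those within letter B. Each interval includes 0, and the interval of *Col14a1* (−3.20 to 3.23) is the widest of the 8.

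The short chains of collagen VI, *Col6a1* and *Col6a2*, varied little between the libraries, while *Col6a3* varied 1.63-fold. *Col6a1* (ENSMUSG00000001119, at 76708792 to 76726168 on chromosome 10 of GRCm38, minus strand) was at 334 and 340.0 CPM in shCTR A and B and at 316 and 318 CPM in shMettl14 A and B. Its lowest and highest library differed 1.08-fold, a narrower range than that of all but 0.624% of tested genes. The log2 fold change was −0.09 (standard error 0.18, 95% interval −0.55 to 0.38), and the ratios were −0.08 within A and −0.10 within B. Both shMettl14 libraries were lower, by less than the standard error. This direction depended on the scaling, since with library totals alone, which shifted the median of all genes from 0.01 to 0.12, the log2 fold change of *Col6a1* was 0.023.

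*Col6a2* (ENSMUSG00000020241), the other short chain of collagen VI, lies on the same strand of chromosome 10, from 76595762 to 76623630, 85161 bases from *Col6a1* with 1 annotated gene between. It was at 158 and 148 CPM in shCTR A and B and at 136 and 136 CPM in shMettl14 A and B, so that here too the shMettl14 libraries were the lower ones. The log2 fold change was −0.17 (standard error 0.18, 95% interval −0.65 to 0.30), with ratios of −0.21 within A and −0.13 within B. It was lower in each fit that left out a library, from −0.22 to −0.12.

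*Col6a3* (ENSMUSG00000048126, minus strand of chromosome 1 from 90765923 to 90843971) encodes the largest of the collagen VI chains, from whose end the fragment endotrophin is cleaved. It was at 66.0 CPM in shCTR A and 107 CPM in shCTR B, and at 90.2 and 103 CPM in shMettl14 A and B. The lowest library was shCTR A and the other 3 lay close together, so that the groups overlapped. The log2 fold change was 0.16 (standard error 0.29, 95% interval −0.59 to 0.91), the ratio was 0.45 within A but −0.05 within B, and without shCTR A the log2 fold change was −0.14. In the edgeR fit with the letters as pairs it was 0.20 (unadjusted p = 0.27, adjusted p = 0.75).

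The balance of the collagen VI chains could be read within each library, free of any scaling between libraries. Per kilobase, *Col6a1* exceeded *Col6a2* by 2.04-fold and 2.21-fold in shCTR A and B and by 2.24-fold and 2.26-fold in shMettl14 A and B. The ratio of these chains was thus close to constant, and the log2 ratio of *Col6a2* to *Col6a1* differed by −0.08 between the hairpins (−1.09 ± 0.08 with shCTR and −1.17 ± 0.01 with shMettl14, SD, n = 2 libraries each, exact two-sided permutation p = 0.33, the smallest that 2 against 2 libraries allow). *Col6a1* exceeded *Col6a3* by 11.1-fold in shCTR A, 6.96-fold in shCTR B, 7.70-fold in shMettl14 A and 6.75-fold in shMettl14 B. Only shCTR A stood apart here, and the log2 ratio of *Col6a3* to *Col6a1* differed between the hairpins by 0.29 (exact permutation p = 0.67), or by −0.051 without shCTR A. The size of these folds depended on the length used, but the differences between hairpins did not, since a fixed length cancels in them. With all annotated exon bases the mean of *Col6a1* was 74.7 and that of *Col6a2* 17.3 CPM per kilobase, against 79.8 and 36.6. Over the 6 chain ratios compared, the p-values adjusted to 1.

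**Figure D3:**
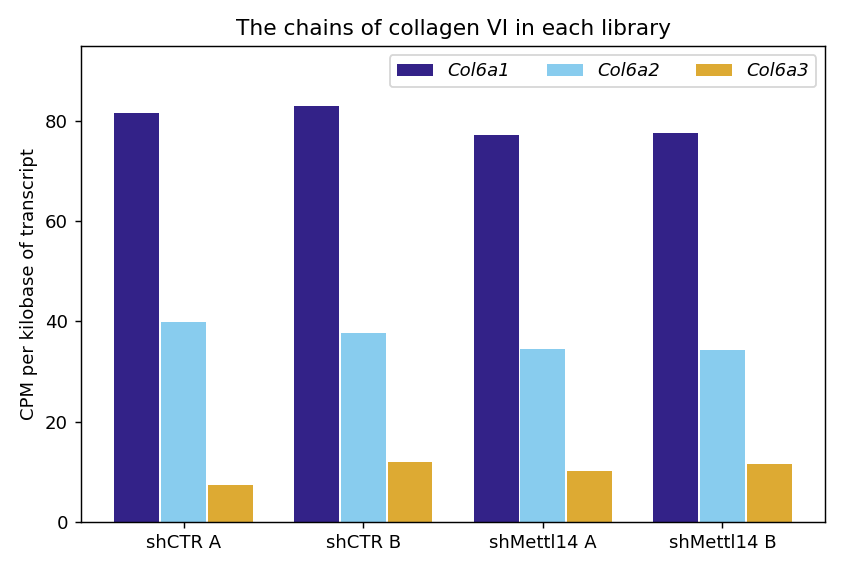
Level of the 3 collagen VI chains in each library, in CPM per kilobase of the longest coding transcript, 1 bar per chain and library. *Col6a1* stands between 77.1 and 82.9 and *Col6a2* between 34.4 and 39.9 in every library, while *Col6a3* is lowest in shCTR A (7.33) and between 10.02 and 11.9 in the others.

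Collagen VIII mRNA came almost wholly from *Col8a1*. This gene (ENSMUSG00000068196, minus strand of chromosome 16 from 57624258 to 57754737) was at 872 and 576 CPM in shCTR A and B and at 1002 and 674 CPM in shMettl14 A and B. The A libraries were higher than the B libraries under both hairpins, by 1.51-fold with shCTR and 1.49-fold with shMettl14. Within each letter the shMettl14 library was the higher one, by nearly the same ratio, 0.20 on the log2 scale in A and 0.23 in B. The log2 fold change was 0.21 (standard error 0.32, 95% interval −0.60 to 1.03), and it turned to −0.06 without shCTR B and −0.10 without shMettl14 A, fits in which the letters are unequal. In the edgeR fit with the letters as pairs it was 0.21 (unadjusted p = 0.20, adjusted p = 0.69).

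*Col8a2* (ENSMUSG00000056174, at 126286793 to 126314330 on the plus strand of chromosome 4) yielded 24 and 21 counts in shCTR A and B and 30 and 33 counts in shMettl14 A and B, or 0.211, 0.194, 0.253 and 0.254 CPM. The exact 95% Poisson intervals of these counts, which cover counting error only, were 15.4 to 35.7, 13.0 to 32.1, 20.2 to 42.8 and 22.7 to 46.3, and overlapped. Overlap of these intervals is not a test of a difference. The shMettl14 libraries were the higher ones (log2 fold change 0.32, standard error 0.60, 95% interval −1.23 to 1.87), with an unadjusted edgeR p of 0.62 from at most 33 counts per library. Per kilobase *Col8a1* exceeded *Col8a2* by 2254-fold to 3501-fold in the 4 libraries.

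The FACIT genes varied most. *Col12a1* (ENSMUSG00000032332, minus strand of chromosome 9 from 79598991 to 79718831), whose product sits on collagen I fibrils and binds tenascins and decorin, was at 203 CPM in shCTR A, 429 CPM in shCTR B, 349 CPM in shMettl14 A and 477 CPM in shMettl14 B. Each shMettl14 library was above the shCTR library of its letter, by 0.78 on the log2 scale in A and 0.15 in B, but shMettl14 A was below shCTR B. The log2 fold change was 0.39 (standard error 0.41, 95% interval −0.67 to 1.44). In the edgeR fit with the letters as pairs it was 0.47, under the 0.05 threshold before adjustment but not after. shCTR A was the lowest library for *Col12a1* as it was for *Col6a3*, and without it the log2 fold change was −0.051, whereas it was 1.02 without shCTR B.

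*Col16a1* (ENSMUSG00000040690, plus strand of chromosome 4 from 130047840 to 130099283), a minor collagen that is found with fibrillin microfibrils in skin and binds integrins, had the largest fold change of the abundant members. It was at 115 CPM in shCTR A, 53.9 CPM in shCTR B, 127 CPM in shMettl14 A and 113 CPM in shMettl14 B. A single library, shCTR B, lay below the other 3, and the groups overlapped. The log2 fold change was 0.51 (standard error 0.39, 95% interval −0.50 to 1.52), with ratios of 0.15 within A and 1.06 within B. It was 0.06 without shCTR B and 1.16 without shCTR A.

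*Col14a1* (ENSMUSG00000022371, plus strand of chromosome 15 from 55307750 to 55520803), which regulates fibril diameter in tendon and skin, was the member with the largest difference between any 2 libraries and the estimate closest to 0. It was at 322 CPM in shCTR A and 318 CPM in shMettl14 A, and at 37.6 CPM in shCTR B and 44.5 CPM in shMettl14 B. Letter A was thus 8.56-fold above letter B with shCTR and 7.16-fold above it with shMettl14. Within the letters the hairpins differed by −0.01 in A and 0.24 in B on the log2 scale. The log2 fold change of 0.01 had a standard error of 1.25 and a 95% interval of −3.20 to 3.23 in the fit that ignores the letters. In that fit the difference between letters counts as spread within the groups. Each library left out moved the estimate, to between −2.02 and 2.28. In the edgeR fit with the letters as pairs it was 0.11 (unadjusted p = 0.49, adjusted p = 0.86).

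The spread between letters was larger than that between hairpins for 5 of the 8 members, a share like the 62.1% of all tested genes. These were *Col6a3*, *Col8a1*, *Col12a1*, *Col14a1* and *Col16a1*, and the spread was smaller for *Col6a1*, *Col6a2* and *Col8a2*. These 5 did not share a direction. *Col8a1*, *Col14a1* and *Col16a1* were higher in A under both hairpins, and *Col6a3* and *Col12a1* were higher in B under both. A difference between letters as large as that of *Col14a1* under both hairpins, in the same direction, was found in 1.19% of all tested genes, one as large as that of *Col8a1* in 19.1%, of *Col12a1* in 25.03%, of *Col6a3* in 46.8% and of *Col16a1* in 49.6%. Cell type markers also differed by letter. The pericyte marker *Rgs5* was at 286 and 270 CPM in A and at 40.5 and 48.8 CPM in B, the same side as *Col14a1*, while *Kcnj8* and *Abcc9*, the other tested markers of that list, were below 2 CPM and higher in B. Of the 8 smooth muscle markers 4 were higher in A under both hairpins, such as *Myh11*, the smooth muscle myosin heavy chain (338 and 233 CPM in A, 101 and 75.0 CPM in B), and 4 were higher in B, such as *Myocd* (0.546 and 0.918 CPM in A, 7.10 and 6.60 CPM in B). Of the 8 endothelial markers 7 were higher in B. Among these, *Emcn* was at 649 and 484 CPM in A and at 2099 and 1077 CPM in B, the same side as *Col12a1* and *Col6a3*. The part of these cells in the collagen values was not tested.

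**Figure D4:**
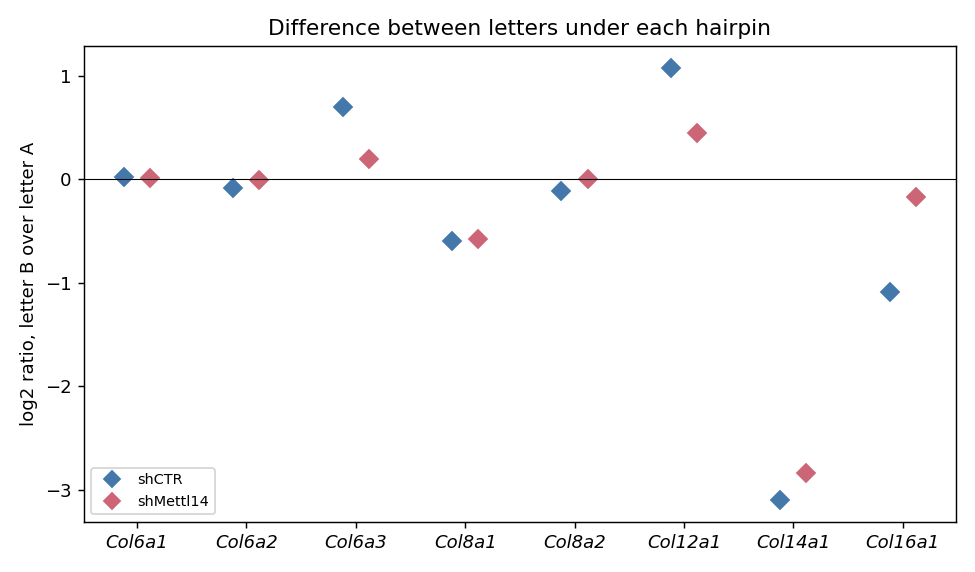
Log2 ratio of the library of letter B to that of letter A for each collagen gene, with 1 diamond for shCTR (blue) and 1 for shMettl14 (red). *Col14a1* lies at −3.10 and −2.84, *Col12a1* at 1.08 and 0.45, and *Col6a1* at 0.02 and 0.01.

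Summed over the 8 genes, the collagens made up 0.203% and 0.160% of all counts in shCTR A and B and 0.242% and 0.194% in shMettl14 A and B. The exact 95% binomial intervals, for counting error only, were 0.202% to 0.204% and 0.159% to 0.161% in the former, and 0.241% to 0.243% and 0.194% to 0.195% in the latter. In CPM per kilobase the sum was 344 ± 63.9 with shCTR and 374 ± 68.2 with shMettl14 (SD, n = 2 libraries each). The log2 difference was 0.12 (0.12 within A and 0.12 within B, exact two-sided permutation p = 0.67), and it was −0.070 without shCTR B and −0.067 without shMettl14 A. With library totals alone, the scaling of the shares above, the log2 difference of this sum was 0.23. Under that scaling the median log2 fold change of all genes was 0.12. Collagen VI alone went from 131 ± 2.60 to 123 ± 1.34 CPM per kilobase, with both shMettl14 libraries lower (log2 difference −0.09, exact permutation p = 0.33), and this difference was 0.018 with library totals alone. The FACIT sum was 71.5 ± 25.5 with shCTR and 87.0 ± 24.1 with shMettl14, a log2 difference of 0.30 that was −0.069 without shCTR B.

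The genes whose profile over the 4 libraries was most like the mean of the collagen VI chains were *Map4k5* (Pearson's r 0.9996 over 4 libraries), the mitochondrial gene *mt-Nd5* (0.998) and *Kank1* (0.998), among 1991 genes with a mean of at least 100 CPM. *Col6a3* shaped most of this mean, with a range of 0.70 on the log2 scale, against 0.10 for *Col6a1* and 0.22 for *Col6a2*. The highest and lowest of the 4 points of the mean differed by 0.21 on that scale. For 8.24% of the 1991 genes r was at least 0.95, so a likeness of this kind is weak. *Col6a3* was more like *Col12a1* (r 0.984) than like its own partner chains *Col6a1* (−0.158) and *Col6a2* (−0.642). The r with these 2 chains rests on the small differences of genes that varied little. *Col14a1* was like *Col8a1* (0.952). Each r is over 4 libraries that share a letter in pairs.

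The other chains of these collagen families were sparse. Of 11 listed genes 10 were in the table and 8 were tested. The chains *Col6a5* and *Col6a6*, which can take the place of *Col6a3*, had 7 counts in shCTR A and 4 counts in shMettl14 A and 0 in the other libraries, where the exact 95% Poisson upper limit of a count of 0 was at most 0.0342 CPM. *Col10a1*, the collagen of hypertrophic cartilage and a relative of collagen VIII, was the most abundant, at 12.8 and 4.30 CPM in shCTR A and B and 14.9 and 5.08 CPM in shMettl14 A and B. Under both hairpins 7 of the 8 tested chains, *Col10a1* among them, were higher in letter A, and 0 were higher in letter B. The estimate was above 0 for 8 of the 8 tested chains, with a median log2 fold change of 0.35, but 0 had an unadjusted p under 0.05. The median lay between −0.44 and 1.52 when each library was left out, and it was below 0 without shCTR B and without shMettl14 A. *Col9a1* had the highest estimate (1.58, standard error 1.03), from 70 counts in shMettl14 A against 12 or 13 in the other libraries, and *Col6a4* the lowest (0.09, standard error 0.69).

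Of 20 listed genes that modify, fold and export collagen chains 18 were tested, and the untested *Colgalt2* and *Mia2* had at most 5 counts in a library. With shMettl14 the estimate was lower for 14 and higher for 4, with a median of −0.13, while 9230 of all 18916 genes were lower. The split was 10 lower and 8 higher with library totals alone (median −0.03), without shCTR A (−0.05) and without shMettl14 B (−0.02), and the median was −0.22 without shMettl14 A and −0.31 without shCTR B. None had an unadjusted p under 0.05. *P4ha1*, a prolyl 4-hydroxylase subunit whose product stabilizes the triple helix, had the lowest estimate and was at 497 and 626 CPM in shCTR A and B and 384 and 494 CPM in shMettl14 A and B (log2 fold change −0.36, standard error 0.24). The highest was that of *Plod2*, a lysyl hydroxylase that prepares collagen for cross-links, with 298 and 298 CPM in shCTR and 363 and 364 CPM in shMettl14 libraries (0.29, standard error 0.18). In both genes the ratios within A and B were alike, −0.37 and −0.34 for *P4ha1* and 0.28 and 0.29 for *Plod2*. The groups did not overlap for either gene, though shMettl14 B (494 CPM) lay just below shCTR A (497 CPM) for *P4ha1*. Of all genes, 13.3% had both shMettl14 libraries below both shCTR libraries and 14.7% had both above.

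The 10 collagen receptors had estimates in both directions, 5 higher and 5 lower, with a median of −0.0066 (0.11 with library totals alone, 0.05 without shCTR A and 0.17 without shCTR B) and 0 with an unadjusted p under 0.05. The integrin subunit gene *Itga2* had the highest estimate (0.73, standard error 0.47), from 10.8 CPM in shMettl14 A against 4.32 to 5.07 CPM in the other libraries, and it was 0.03 without shMettl14 A. The lowest was that of *Cspg4*, whose product NG2 binds collagen VI, at 252 and 137 CPM in shCTR A and B and 202 and 110 CPM in shMettl14 A and B. Its log2 fold change of −0.32 (standard error 0.43) became 0.19 without shCTR A and 0.06 without shMettl14 B. The letters are unequal in these fits, and *Cspg4* was higher in A under both hairpins. Compared letter by letter, shMettl14 lay below shCTR to a like extent, with ratios of −0.32 in A and −0.32 in B. Pairing the letters in edgeR gave −0.32 for *Cspg4* (unadjusted p = 0.065, adjusted p = 0.53). Among 11 tested matrix proteins known to bind these collagens 5 were higher and 6 lower, with a median of −0.05 (0.06 with library totals alone, 0.04 without shCTR A and 0.12 without shCTR B, each with 6 higher and 5 lower, and −0.19 without shMettl14 B). An unadjusted p under 0.05 was found for 1 of them, *Bgn*, which encodes the small proteoglycan biglycan, a partner of collagen VI. It was at 6181 and 6973 CPM in shCTR A and B and at 4777 and 4726 CPM in shMettl14 A and B, so that the shMettl14 libraries were the lower ones. The log2 fold change was −0.47 ± 0.18 (standard error), with an edgeR p of 0.0495 before and 1 after adjustment, and the unadjusted p was 0.047 with RLE scaling, 0.060 with upper-quartile scaling, 0.092 with DESeq2 and 0.10 with library totals alone.

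**Figure D5:**
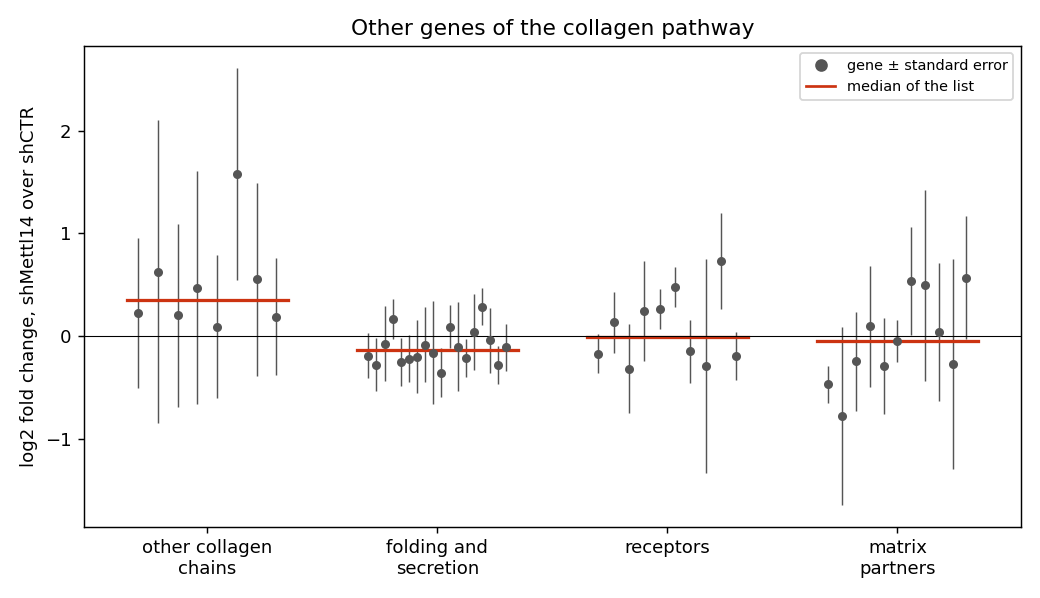
Log2 fold change of shMettl14 over shCTR for the tested genes of the 4 lists, with 1 point per gene, its standard error as a bar, and the median of each list as a red line. The medians are 0.35 for the other collagen chains, −0.13 for folding and secretion, −0.0066 for receptors and −0.05 for matrix partners, and no gene had an adjusted p under 0.05.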

How the data were processed

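The authors mapped paired reads of strand-specific, poly-A–enriched libraries to GRCm38 (mm10, Ensembl version 86) by STAR, and featureCounts gave the reads per gene (tools also named in the submitters' processing notes). The deposited table holds these counts, not normalized, for 48587 gene symbols in 4 columns. Strand setting and treatment of reads on several places are not given in the sources used here.

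Counts were filtered by filterByExpr (18916 genes), normalized by TMM and compared with edgeR 4.0.16 (R 4.3.3), a robust quasi-likelihood fit without a block and Benjamini-Hochberg adjustment over all genes. The standard error of an estimate is its absolute value over the square root of F. Ratios within and between letters used log2 CPM with a prior count of 2. Chain ratios and sums were compared by exact two-sided permutation tests in Python 3.11.15. Lengths, positions and sequences came from GENCODE M21. Alternatives were DESeq2 1.42.0, RLE, upper-quartile and total-count scaling, other filters, a replicate block and each library left out. Lengths from all annotated exon bases, and the scaling alternatives for the gene lists, were chosen after seeing the data.

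The members and lists were chosen with earlier results of these data known. Named genes were *Mettl14*, the members, the genes of each pathway list with an unadjusted p under 0.05 or else its highest and lowest estimate, and the 3 genes most like collagen VI. *Col6a5*, *Col6a6*, *Col10a1* and the marker genes given by value were named after their values were seen. In simulated data (18916 genes, 200 of them given a log2 change of 2) with letters that differed as measured, 0% of those 200 were found by the edgeR fit, 74.5% by the replicate block and 64% by DESeq2. With letters alike they found 78.5%, 78.5% and 80.5%. No smaller change was simulated.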

Additional observations from a re-analysis of the deposited data

How the results depend on the processing

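No gene passed an adjusted p of 0.05 (count 0) in edgeR under TMM, RLE, upper-quartile and total-count scaling and under both other filters, where 302 to 471 genes had an unadjusted p under 0.05. The count was 5 with the Wald test of DESeq2, 9 in the fit with a replicate block (A and B as pairs) and between 0 and 1 with each library left out. In all of these fits 0 of the 8 collagen members were called. *Mettl14* passed the adjusted threshold with DESeq2 (−2.09) and the block (−2.08). Libraries of the same letter deviated together (r 0.578 across genes), but with only 2 pairs and no stated shared culture the block remains an alternative. With it *Col12a1* (log2 fold change 0.47, unadjusted p = 0.029, adjusted p = 0.44 from edgeR) and *Col16a1* (0.61, 0.016 and 0.39) had an unadjusted p under 0.05, as did 10.3% of all genes. *Bgn* (adjusted p = 0.38), *Itga2* (0.45) and *P4ha1* (0.47) were also under 0.05 before adjustment in that edgeR fit.

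Directions that changed did so mostly with 1 library left out. The ranges of the log2 fold change were −0.14 to 0.55 for *Col6a3*, −0.10 to 0.55 for *Col8a1*, −0.051 to 1.02 for *Col12a1*, −2.02 to 2.28 for *Col14a1*, −0.29 to 2.38 for *Col9a1*, −0.42 to 0.89 for *Col6a4* and −0.83 to 0.19 for *Cspg4*. The ranges of the log2 difference in chain ratios were −0.051 to 0.62 for *Col6a3* to *Col6a1*, −0.022 to 0.77 for *Col6a3* to *Col6a2*, −0.18 to 0.40 for *Col8a2* to *Col8a1*, −2.44 to 1.74 for *Col14a1* to *Col12a1* and −0.95 to 1.22 for *Col16a1* to *Col12a1*. Those of the sums were −0.070 to 0.31 for all members, −0.085 to 0.51 for collagen VIII and −0.069 to 0.67 for the FACIT genes. Library totals alone turned *Col6a1* to 0.023 and the collagen VI sum to 0.018. *Col6a2*, *Col8a2* and *Col16a1* and the *Col6a2* to *Col6a1* ratio kept their direction under every alternative run on them. For that ratio the length and block settings could not change the value, so only leaving out a library could have turned it. Fits that leave out a library compare unequal numbers of the letters, and a lone library is assumed to vary like the others.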
